A study of Mus musculus with 4 samples.

Results

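The regions described here were 749 wide domains of H3K79me2, dimethylation of histone H3 at lysine 79, in mouse thymocytes grown while the stearoyl-CoA desaturase SCD1 was inhibited. They were chosen by the values of the inhibitor peak list and of the control peak list: a peak of the inhibitor library with q of at most 0.05, at least 40 kb wide, that overlapped by not even 1 bp any control peak of that strength. Of the 35018 peaks of the inhibitor list, 6528 had such a q, 1025 of these were at least 40 kb wide, and 749 of the 1025 touched no strong control peak. Below, a control peak is called strong at q of at most 0.05 and weak when it was listed with a higher q. The domains are called wide because of the rule, and their width, their enrichment in the inhibitor library and the lack of strong control peaks are descriptions, not results.

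Both libraries came from C57BL/6 haematopoietic stem cells that were cultured on OP9-DL1 cells, which are marrow stroma carrying a Notch ligand, with the cytokines Flt-3L and IL-7, and collected at the DN3 stage of T cell development. The control cells received the vehicle DMSO, and the inhibitor cells received A939572, which blocks the conversion of saturated to monounsaturated fatty acids by SCD1. There was 1 ChIP-seq library per condition, so nothing below has a replicate error or a p-value, and the treatment and any other difference between the 2 libraries cannot be told apart. All intervals are at 95% and cover counting error only, with domains or genes taken as independent. The number of reads behind the lists is unknown.

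DOT1L, the methyltransferase that makes this mark in mammals, travels with elongation factors such as the AF9 and AF10 proteins behind the transcribing polymerase. Its mark therefore starts just inside active genes, is strongest over their 5′ part and fades towards the 3′ end. Wide stretches of it are known from highly transcribed genes and, in leukaemias with MLL fusions, from the genes those fusions bind. In T cells, DOT1L is known to help maintain lineage identity.

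The lists differed in strength over the whole genome. Of 124962 control peaks, 804 were strong and 124158 weak, while the inhibitor list was shorter and held 6528 peaks of that strength. The narrowest control peak measured 381 bp and the narrowest inhibitor peak 360 bp, and the smallest gap between neighbouring peaks was 1527 and 1443 bp, so both lists kept peaks apart at nearly equal distances. Of 18 marker genes of DN3 thymocytes, 14 were covered over at least 50% of their body by inhibitor peaks and 10 by control peaks, where the shares of all coding genes were 26.1% and 5.47%. In the inhibitor list 1 of 12 OP9 stroma genes, 1 of 8 myeloid genes, 1 of 5 erythroid genes and 0 of 7 B cell genes were so covered, and in the control list 0 of each. Of 8 stem and progenitor genes, 1 was so covered in each list.

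Promoter sequences of 6 genes are given as examples of gene starts in the domains, because the weak control peaks described below often left the start itself uncovered. Each line gives 250 bases before to 50 bases after a start listed by RefSeq in build GRCm38.p6 (mm10), 5′ to 3′ on the strand of the gene, with every CG dinucleotide in capitals. The genes were taken from the 10 widest domains and from the domain of Pitpna, which held no control peak, and the choice between starts under and not under a weak control peak was made after the values had been seen. No weak control peak covered the starts of Foxn3, Foxp1, Msi2 and Pitpna, while Jmjd1c and Ripor2 have a listed start under one. The printed starts of Msi2 and Pitpna lie at the 5′ end of the gene. Those of Foxn3, Foxp1, Jmjd1c and Ripor2 lie 114, 256, 89.4 and 80.7 kb inside it, so they are internal starts.
Foxn3, chr12:99450025-99450324, minus strand: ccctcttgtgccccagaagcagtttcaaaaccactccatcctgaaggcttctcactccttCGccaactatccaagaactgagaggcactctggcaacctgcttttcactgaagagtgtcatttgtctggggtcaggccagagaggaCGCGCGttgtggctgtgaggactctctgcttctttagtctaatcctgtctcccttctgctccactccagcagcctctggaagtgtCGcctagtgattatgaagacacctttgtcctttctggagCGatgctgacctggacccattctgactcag
Foxp1, chr6:99266466-99266765, minus strand: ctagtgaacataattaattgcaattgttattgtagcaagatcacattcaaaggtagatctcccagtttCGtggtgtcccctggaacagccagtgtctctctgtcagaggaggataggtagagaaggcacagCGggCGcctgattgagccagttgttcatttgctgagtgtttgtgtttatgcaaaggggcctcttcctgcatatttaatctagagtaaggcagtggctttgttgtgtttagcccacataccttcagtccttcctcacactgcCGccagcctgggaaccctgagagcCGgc
Msi2, chr11:88718228-88718527, minus strand: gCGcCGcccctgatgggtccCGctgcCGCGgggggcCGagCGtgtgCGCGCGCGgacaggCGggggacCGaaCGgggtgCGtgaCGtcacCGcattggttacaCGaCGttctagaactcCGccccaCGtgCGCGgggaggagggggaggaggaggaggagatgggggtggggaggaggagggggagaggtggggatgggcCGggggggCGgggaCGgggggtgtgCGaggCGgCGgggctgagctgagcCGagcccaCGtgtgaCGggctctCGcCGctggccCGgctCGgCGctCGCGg
Pitpna, chr11:75587829-75588128, plus strand: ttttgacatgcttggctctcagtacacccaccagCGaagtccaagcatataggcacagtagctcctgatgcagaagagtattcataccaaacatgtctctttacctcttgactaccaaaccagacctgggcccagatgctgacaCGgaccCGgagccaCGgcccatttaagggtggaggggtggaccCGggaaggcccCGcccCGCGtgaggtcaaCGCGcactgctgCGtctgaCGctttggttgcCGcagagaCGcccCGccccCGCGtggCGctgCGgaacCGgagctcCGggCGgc
Jmjd1c, chr10:67185500-67185799, plus strand: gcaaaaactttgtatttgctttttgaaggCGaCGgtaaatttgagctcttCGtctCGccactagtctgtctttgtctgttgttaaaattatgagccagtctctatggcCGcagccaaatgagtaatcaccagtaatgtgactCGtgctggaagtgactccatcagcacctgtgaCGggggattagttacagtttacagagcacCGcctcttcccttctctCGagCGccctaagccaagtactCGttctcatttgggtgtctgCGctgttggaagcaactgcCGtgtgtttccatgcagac
Ripor2, chr13:24581939-24582238, plus strand: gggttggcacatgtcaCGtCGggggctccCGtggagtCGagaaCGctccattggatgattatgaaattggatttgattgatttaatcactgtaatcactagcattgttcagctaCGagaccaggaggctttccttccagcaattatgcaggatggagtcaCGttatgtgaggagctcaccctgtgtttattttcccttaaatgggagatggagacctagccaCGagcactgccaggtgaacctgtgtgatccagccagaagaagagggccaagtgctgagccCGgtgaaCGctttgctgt

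The Msi2 promoter was the most CG-rich of the 6, with 39 CG dinucleotides and 76.3% G or C. Pitpna had 22 CG dinucleotides and Jmjd1c had 13. Ripor2 with 10, Foxn3 with 6 and Foxp1 with 5 were poorer. Over the 779 promoters in the domains the median was 24 CG dinucleotides, above every printed promoter but that of Msi2. The 6 are therefore not typical of the starts in the domains. The control peak over the start of Jmjd1c was 32.8 kb wide with a deposited fold enrichment of 1.99, and that over the start of Ripor2 was 0.546 kb wide with a fold of 1.47 and a −log10 q of 0.

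Across the genome the starts inside the domains were richer in CG than starts in general. The ratio of observed to expected CG dinucleotides had a median of 0.808 over 779 promoters of 603 genes in the domains, against 0.567 over all 21262 promoters of coding genes. A ratio of at least 0.6 was found in 72.5% of the promoters in the domains and in 47.7% of all. The promoters in wide domains with a strong control peak were alike, with a median of 0.816 and 71.3%. Within the domains, the 632 promoters whose start lay under no weak control peak had a median ratio of 0.840, and 78.0% reached 0.6. The 147 whose start lay under one had a median of 0.593, and 49.0% reached 0.6, close to the share over all promoters. Part of this difference went with the place of the start in the gene. Within 1 kb of the 5′ end of the gene, the median ratio was 0.807 for the 78 starts under a weak control peak and 0.867 for the 460 others, and 73.1% and 86.3% reached 0.6. Further inside the gene, it was 0.281 for 69 and 0.663 for 172 starts. The base composition of the starts therefore moved with the control coverage at both places, and its part in that coverage was not tested.

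The same windows were searched for 4 short motifs on both strands. The GC box GGGCGG was found in 65.6% of the promoters in the domains and in 46.2% of all promoters of that length. The ETS motif CCGGAAG was found in 14.0% and 11.6%. The box CCAAT was found in 32.5% and 38.2%, and the TATA box TATAAA in 5.13% and 12.6%. In wide domains with a strong control peak, the GC box was found in 62.0% and the ETS motif in 11.7% of the promoters. There CCAAT was found in 35.4% and the TATA box in 7.46%, so these shares are not particular to the domains described here. The GC box contains a CG dinucleotide, so its share is not independent of the CG content. Msi2 and Pitpna each held 3 GC boxes, and the other 4 promoters printed above held none.

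The domains were 40012 to 303393 bp wide with a median of 59501 bp (57563 to 62419). Together they took 54.2 Mb, 35.4% of the length of all inhibitor peaks at q of at most 0.05. Their deposited fold enrichment, the ratio to the local background as the authors' peak caller wrote it, ran from 2.00 to 5.75 with a median of 3.17, and their −log10 q from 1.31 to 22.6 with a median of 5.27. The 276 equally wide peaks that did touch a strong control peak had a median width of 66612 bp, a median fold of 4.14 and a median −log10 q of 11.5. The 1123 inhibitor peaks of 20 to 40 kb without a strong control peak had a median fold of 2.93 and a median −log10 q of 4.37. The domains thus lay between these 2 sets in the strength of the inhibitor signal, and the scatter of fold against width shows that width and fold were nearly unrelated among them (Spearman rho 0.0780 over the 749 domains of 1 library, a description).

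**Figure D1:**
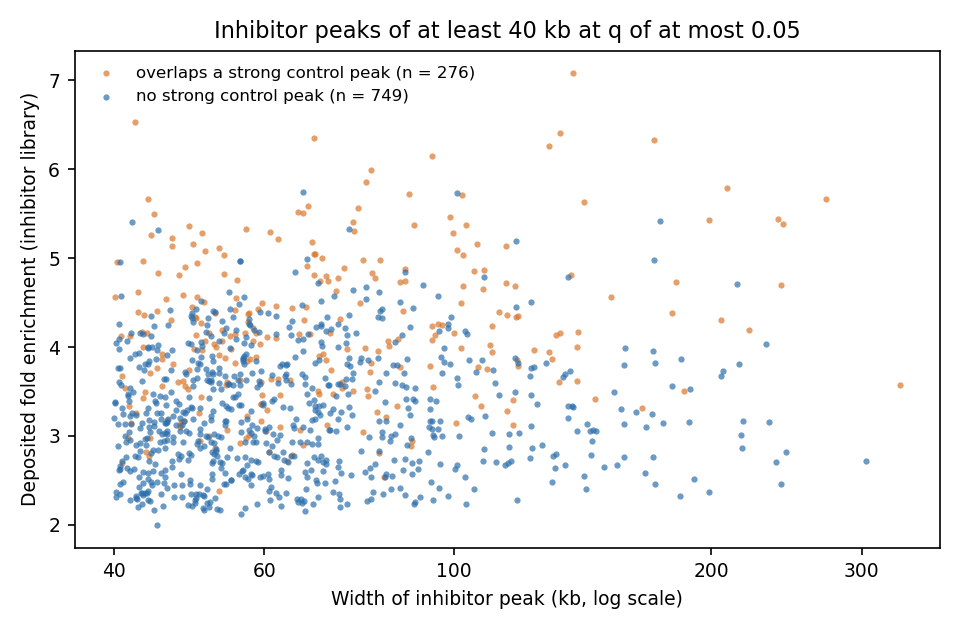
Deposited fold enrichment (y axis) against width in kb on a log scale (x axis) for the 1025 inhibitor peaks of at least 40 kb at q of at most 0.05. Each point is a peak: the 749 without a strong control peak are blue and lie between 2.00 and 5.75, and the 276 that overlap one are orange and lie higher, with a median of 4.14 against 3.17.

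The peaks nearest to each limit of the rule were picked by the limited value, so they lay close together in it. The domains of Mettl9, Pip5k1a and Pptc7 were 40012, 40156 and 40160 bp wide and were kept, and those of Otulin, Gimap5 and Phlpp1, at 39999, 39984 and 39981 bp, were not. By q, Lrch1, Ppm1l and Igf1r at −log10 q of 1.308, 1.319 and 1.322 lay just inside, and Foxo1, Uvrag and Prickle1 at 1.293, 1.290 and 1.273 just outside. Foxo1 encodes a transcription factor that controls homing and survival genes of T cells, and its domain of 79875 bp was left out on this ground alone. By the strength of the control peak, Marchf7, Top2b and Slc38a10 with control −log10 q of 1.299, 1.298 and 1.284 were kept. Atp13a3, Peli1 and Septin7 at 1.3013, 1.3022 and 1.3053 were left out.

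Nearly every domain held weak control peaks. Only 2 of 749 (0.267%, 0.0733 to 0.968) had no control peak of any strength. The control list held 124158 weak peaks over 223.7 Mb, so a window this wide can easily hold one. The share without a control peak was not counted in other windows of equal width, and the cover below is the closer comparison. Weak control peaks covered a median of 41.5% of a domain (39.1 to 44.1), with quartiles of 27.7% and 55.4% and a highest value of 95.1%. In the flanks of equal width on both sides of each domain the median was 10.96%, and the domain was covered more than its flanks in 704 of 749 cases (94.0%, 92.1 to 95.5). At least 50% of the domain was covered in 260 domains (34.7%, 31.4 to 38.2) and at least 75% in 27. The lack of a strong control peak was thus seldom a lack of listed control signal.

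The cover rested on peaks of low significance in a lenient list, whose lowest −log10 p was 1.003. When only control peaks with −log10 p of at least 2 were kept, the median cover fell to 3.08% and 306 domains held none. The strongest control peak of a domain had a median −log10 q of 0.232, at least 0.5 in 200 domains and at least 1.0 in 48. They were stronger than other weak control peaks by these measures: −log10 p was at least 2 in 10.4% of the weak control peaks that overlapped a domain and in 3.41% of those elsewhere, and its medians were 1.459 and 1.382.

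Wide domains with a strong control peak had less weak cover, with a median of 16.2% (14.6 to 19.2). Strong peaks took up part of their length, and how much of the lower weak cover goes with that was not tested. Control peaks of any strength covered a median of 51.6% of these domains (48.7 to 55.9). The 20 to 40 kb domains without a strong control peak had a median weak cover of 32.7% (31.1 to 34.4), with 9.03% in their flanks, and 18 of 1123 (1.60%, 1.02 to 2.52) held no control peak. The total control cover of the wide domains without a strong control peak (median 41.5%) lay between these values, and its place below that of domains with one follows from the rule that split them.

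**Figure D2:**
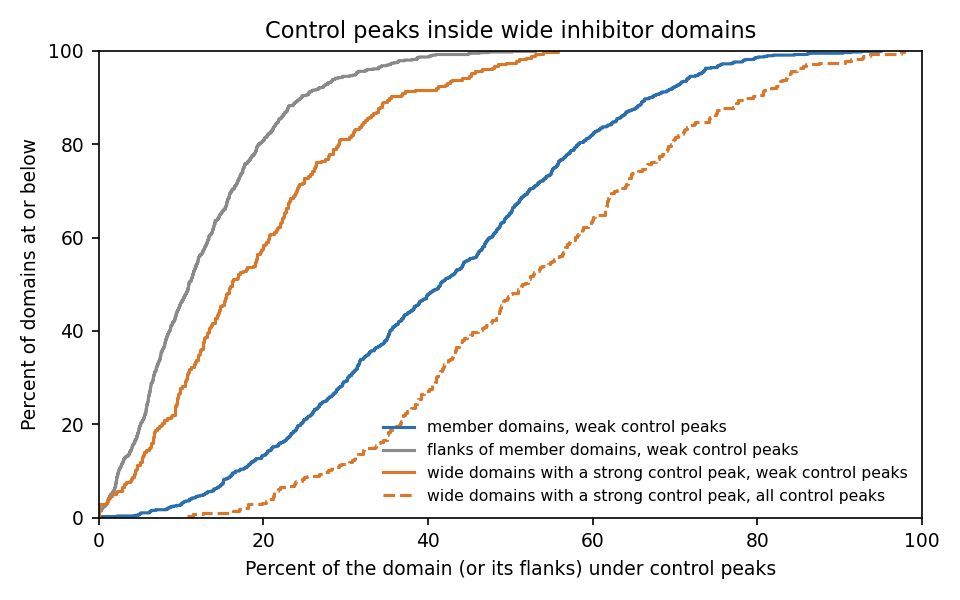
Cumulative share of domains (y axis, percent) by the percent of their length under control peaks (x axis). The blue line is the weak cover of the 749 domains (median 41.5%), the grey line that of their flanks (10.96%), and the orange lines are weak (solid, 16.2%) and total (dashed, 51.6%) cover of the 276 wide domains with a strong control peak.

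The control signal inside the domains was broken into pieces. A domain held a median of 6 weak control peaks, from 0 to 32, and 139 domains held over 10. The widest control peak inside had a median width of 9.87 kb and the longest uncovered stretch a median of 11.5 kb. A single weak control peak covered at least 50% of the domain in 48 domains (6.41%, 4.87 to 8.39). In all, 5744 weak control peaks overlapped a domain, 4.63% of all weak control peaks, and the domains held 10.3% of the length of all weak control peaks. They were wider than those elsewhere, with a median of 2068 against 1253 bp, at nearly the same median fold, 1.67 against 1.66. Of the 1126 weak control peaks of at least 10 kb, 502 (44.6%) overlapped one of the domains.

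Weak control cover was ranked more like the enrichment in the inhibitor library than like the width of the domain. With the domains split into 4 groups of rising fold, the median weak cover was 26.2%, 34.6%, 46.5% and 58.0%, and the median width of the widest control peak inside was 4.99, 7.60, 11.96 and 22.4 kb. Spearman's rho over the 749 domains was 0.585 between fold and weak cover and 0.137 between width and weak cover. Both are descriptions over domains that share the same 2 libraries. A higher inhibitor fold thus went with fewer but longer control peaks: the median number per domain was 7 in the lowest group and 5 in the highest.

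The domains lay on genes, and mostly on 1 gene each. Exactly 1 protein-coding gene was overlapped in 600 domains (80.1%, 77.1 to 82.8), 2 in 117, 3 or more in 25 and none in 7. In the wide domains with a strong control peak, exactly 1 was overlapped in 162 of 276 (58.7%, 52.8 to 64.3) and 3 or more in 39 (14.1%, 10.5 to 18.7, against 3.34%, 2.27 to 4.88). Coding gene bodies filled at least 90% of the domain in 683 of 749 (91.2%, 88.9 to 93.0) and in 175 of 276 (63.4%, 57.6 to 68.9). Of the 20 to 40 kb domains without a strong control peak, 72.8% overlapped exactly 1 coding gene. Coding gene bodies filled at least 90% of the domain in 83.3% of them. Wide domains without a strong control peak thus lay on a single gene more often than wide domains with one.

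The genes inside were long. At least 50% of the body lay inside the domains for 625 of 21883 coding genes, a background of 2.86%, and for 496 of the 6006 genes of at least 40 kb, 8.26%. Their median length was 70.7 kb, against 45.3 kb for the 361 genes inside wide domains with a strong control peak, 27.1 kb for those inside the 20 to 40 kb domains and 17.2 kb over all coding genes. Another 279 genes were touched over less than 50% of their body, and 175 of these were at least 100 kb long. Because 144 of the 625 overlap another coding gene, a domain there cannot be given to 1 of the pair.

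Weak control peaks covered at least 50% of the body of 157 of the 625 genes (25.1%, 21.9 to 28.7), against 781 of all 21883 coding genes (3.57%). The median weak cover of the body was 36.2% inside the domains and 1.67% over all genes. A start under a weak control peak was found for 104 of the 516 genes with a listed start (20.2%, 16.9 to 23.8), against 1218 of 17491 over all genes (6.96%). Only 21 of the 625 genes held no control peak, against 9776 of all 21883. These counts were not matched for length: the median gene was 70.7 kb long inside the domains and 17.2 kb over all. A longer body has more room for a peak, and the part of length in these contrasts was not tested. They are therefore no result about the genes inside.

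The position of the domains on their genes was regular. Of 485 domains that overlapped exactly 1 coding gene with a listed start, 384 held a listed start. That start could be an internal one, far from the 5′ end of the gene. In the 384 domains, the 5′ edge lay a median of 1.10 kb upstream of the 5′ end of the gene. It was within 2 kb of that end in 227 and within 5 kb in 323. The 3′ edge stopped more than 5 kb short of the 3′ end of the gene in 321, lay within 5 kb of it in 53 and ran more than 5 kb past it in 10. Domains covered a median of 83.3% of genes under 100 kb (n = 210) and 52.5% of longer genes (n = 174), with median domain widths of 52.4 and 82.4 kb. So most of these 384 domains began within 5 kb of the 5′ end of the gene, and most ended more than 5 kb before its 3′ end.

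The weak control peaks inside leaned to the same side. Over these 384 domains, they covered a median of 58.8% of the 50% of the domain nearer the 5′ end of the gene and 29.2% of the other 50%, and the 5′ side was higher in 323. In the 101 domains that held no listed start, the medians were 46.6% and 27.5%. The 5′ edge of these 101 lay a median of 0.611 kb from the 5′ end of the gene. By distance from the outermost listed start inside a domain, in 385 genes of at least 60 kb, weak control peaks covered 14.6% of the 10 kb upstream, 59.3% of the first 5 kb, 68.7% from 5 to 10 kb, 60.2% from 10 to 20 kb, 47.1% from 20 to 40 kb and 29.1% from 40 to 60 kb. Inhibitor peaks covered 99.6%, 99.3%, 98.3%, 96.0% and 82.4% of the same windows inside the gene. The control cover thus had the downward slope along the gene that the mark is known for, at a lower level than the inhibitor cover, which the rule had fixed to be high.

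Control cover rose steeply across the start. It was lowest 3 to 4 kb upstream, at 9.74%. Weak control peaks covered 11.2% of the last kilobase before the start, 28.0% of the first kilobase inside the gene, 65.7% of the next one and 70.2% from 2 to 3 kb, close to the highest value of the profile, 70.6% from 7 to 8 kb. In the 289 genes whose start lies within 1 kb of the 5′ end of the gene, the same 4 values were 10.1%, 26.8%, 66.8% and 71.0%. Genes in wide domains with a strong control peak (n = 105) had total control cover of 88.6%, 93.5%, 85.5%, 69.8% and 47.4% over the windows from 0 to 5, 5 to 10, 10 to 20, 20 to 40 and 40 to 60 kb. Both sets fell along the gene. The lower level of the set without a strong control peak follows from the rule that split them.

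**Figure D3:**
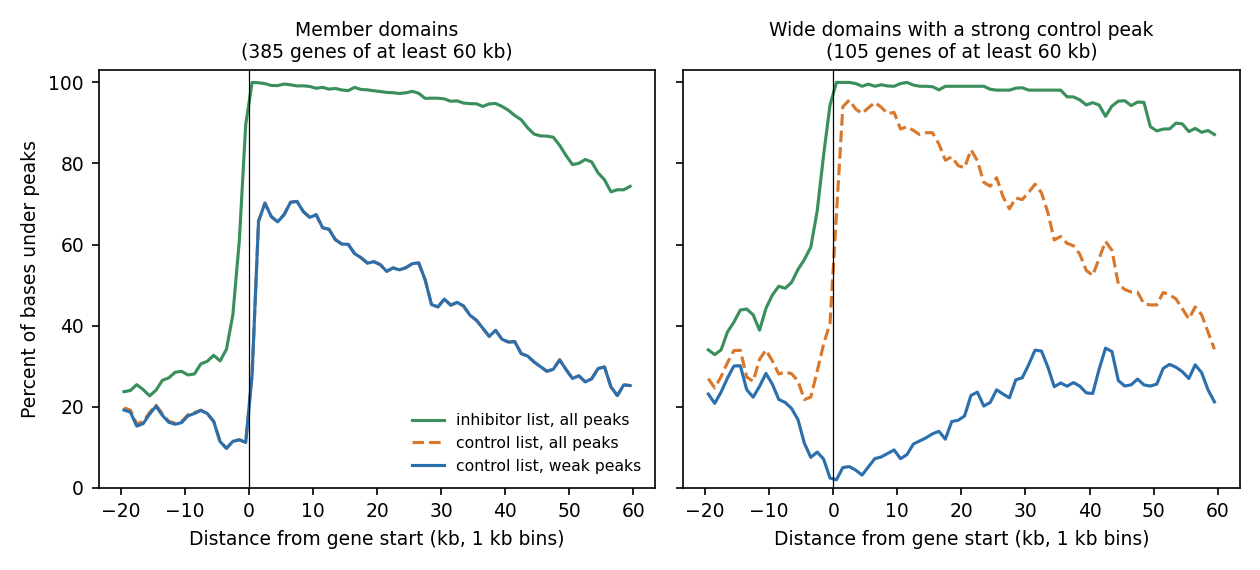
Percent of bases under peaks (y axis) in 1 kb bins by distance from the gene start in kb (x axis), for genes of at least 60 kb with a start in a domain. Weak control cover (blue) in the 385 genes of domains without a strong control peak rises from 11.2% just before the start to 70.2% at 2 to 3 kb and falls to 29.1% on average at 40 to 60 kb, while total control cover (orange, dashed) in the 105 genes of domains with a strong control peak starts higher. In the left panel both control lines lie on each other.

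The widest domain, 303 kb at chr12:99267574-99570966, lay on Foxn3, which encodes a forkhead repressor, and held 32 weak control peaks over 25.3% of its length. Maml3, a Mastermind coactivator of Notch target genes, carried a domain of 245 kb at chr3:51685646-51930489 with 24.9% weak control cover. A neighbouring domain of 172 kb with 48.7% cover took most of the rest of the gene, and together they covered 99.1% of it. Foxp1, a forkhead factor that keeps T cells quiescent, carried 1 domain of 241 kb at chr6:99156085-99397476 with 26.8% cover and another of 150 kb with 25.7%, together 65.5% of the gene. Both genes were thus spread over more than 1 domain, as were 15 others, among them Prkca, Arid1b, Mllt3 and Jarid2, and no gene was touched by 3.

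Msi2, an RNA-binding regulator of stem cells, had a domain of 238 kb at chr11:88480895-88718994 with 16.6% weak control cover, the least of the 10 widest. Tox, a high-mobility-group factor needed for CD4 T cell development, had one of 234 kb at chr4:6760018-6993864 with 73.6% cover, the most of the 10. Its strongest control peak had a −log10 q of 1.14, and its widest one spanned 70.3 kb. The Tox domain therefore missed a strong control peak by little, while that of Msi2, of the same width, had a highest control −log10 q of 0.0389.

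Prkca, which encodes protein kinase C alpha, carried 232 kb at chr11:108112597-108344390 with 31.7% weak control cover and a fold of 4.04. The domain of 218 kb at chr10:67040175-67258005 spanned Jmjd1c, a Jumonji-family protein, and 64.7% of Reep3, with 48.1% cover and a highest control −log10 q of 1.25. Xylt1, the xylosyltransferase that starts glycosaminoglycan chains, had 217 kb with 33.6% cover against 2.22% in its flanks. Ripor2, a RhoA inhibitor of lymphocytes, had 216 kb with 35.3%. Sipa1l1, a Rap GTPase activator, had 215 kb with 71.5% against 5.46% in its flanks. Among the 10 widest domains the weak cover thus ran from 16.6% to 73.6%, with no order by width.

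**Figure D4:**
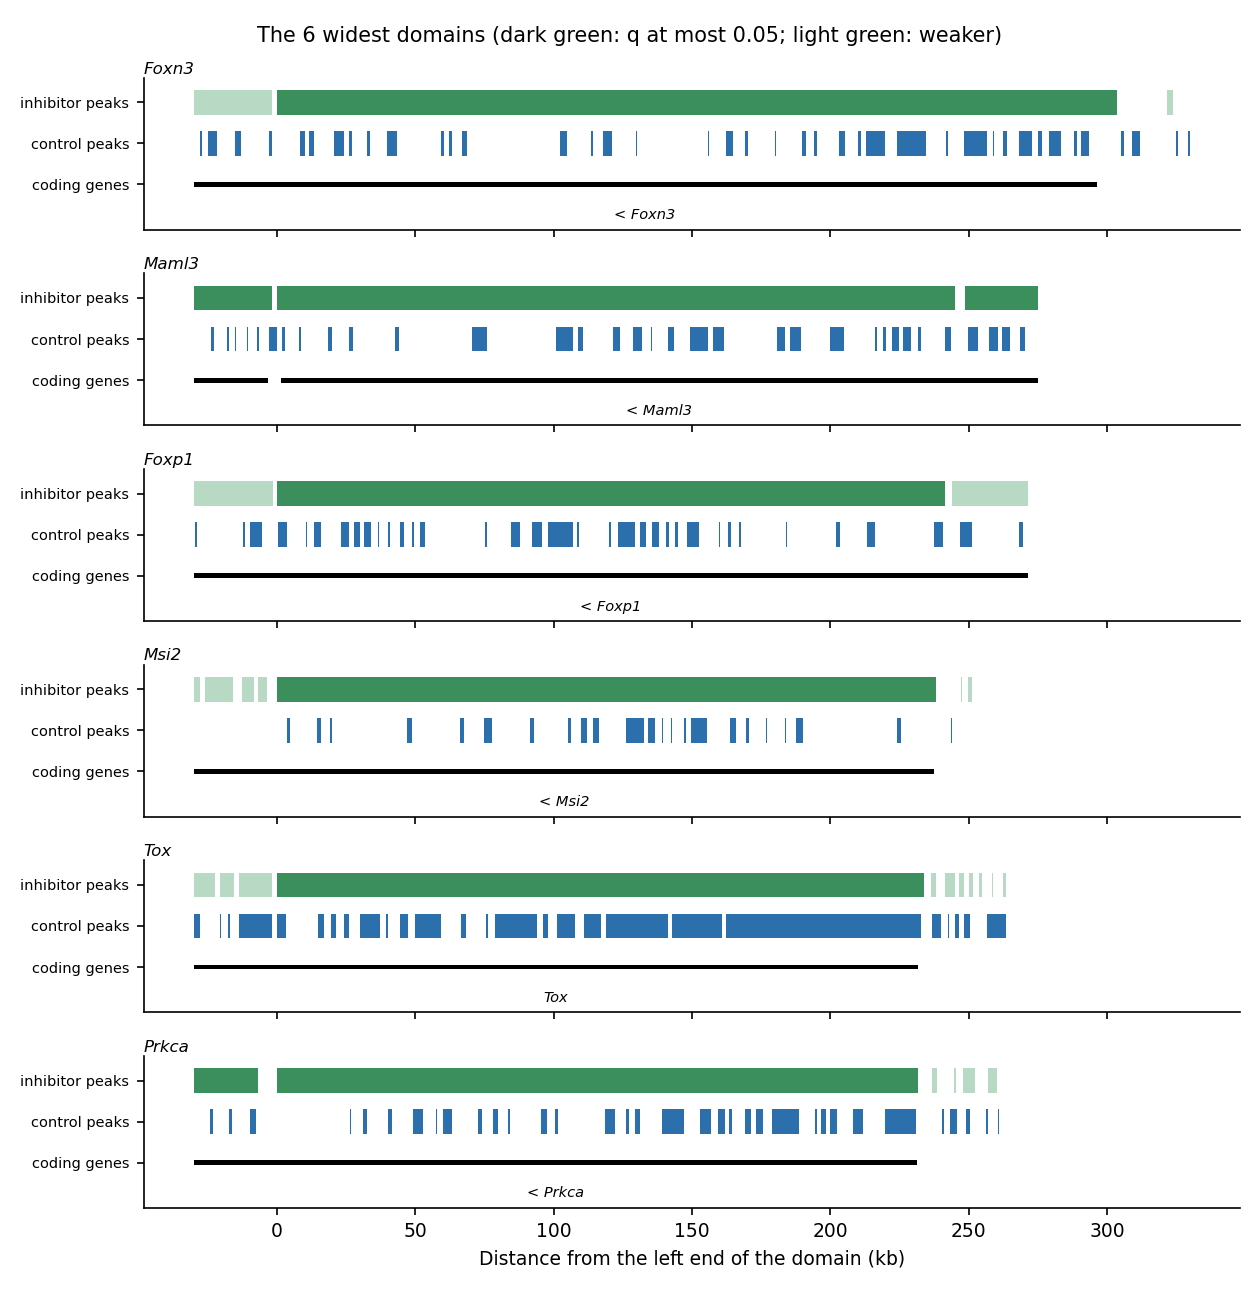
Peaks over the 6 widest domains, by distance in kb from the left end of the domain (x axis), with inhibitor peaks in green (dark at q of at most 0.05), weak control peaks in blue and coding gene bodies in black. Arrowheads give the gene direction where RefSeq starts give it. Weak control cover is 25.3% at Foxn3 and 16.6% at Msi2, in scattered peaks of up to 10.7 kb at Foxn3, and 73.6% at Tox, with a single peak of 70.3 kb.

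The highest fold was at Lnpep, the insulin-regulated aminopeptidase, with 5.75 over 66.7 kb at chr17:17561442-17628103. A single weak control peak of 47.9 kb lay over 71.9% of it, with a fold of 2.097 and a −log10 q of 0.977. Znrf1, a ubiquitin ligase, and Ldhd, a D-lactate dehydrogenase, shared a domain of 101 kb with a fold of 5.73, 71.2% of it under 1 weak control peak. Med13l, a Mediator subunit, followed with 5.42 over 174 kb and 53.4% cover in 18 control peaks. B3gnt2, which extends poly-N-acetyllactosamine chains, had a fold of 5.40 over 42.0 kb and 64.5% cover.

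Elovl5, the elongase of polyunsaturated fatty acids, was the fifth by fold, with 5.32 over 75.4 kb at chr9:77908581-77984011. A weak control peak of 43.7 kb lay over 57.9% of that domain. By −log10 q the leading domains were Lnpep with 22.6, B3gnt2 with 20.7, Znrf1 with 19.2, Ern1, the stress sensor IRE1, with 16.6, and Jak1, the kinase of cytokine receptors, with 16.3. The control signal in these 7 domains was weak but long: cover ran from 44.2% at Ern1 to 73.3% at Znrf1.

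Some domains were nearly filled by weak control signal. The highest cover, 95.1%, was at a domain of 68.4 kb within Rora, a nuclear receptor of lymphocyte development, whose fold in the inhibitor library was low at 2.23. Tnfaip8, a regulator of cell survival, had 92.7% of 118 kb covered, nearly all by a control peak of 108.7 kb, the widest in any of the domains. Akap13, an anchoring protein for protein kinase A, had 91.4%, Dock2, the Rac activator of lymphocytes, 90.4%, and Ikzf2, which encodes Helios, 86.3% of 123 kb. In each of these, the highest control −log10 q was under 1.0: 0.960 at Rora, 0.835 at Tnfaip8, 0.412 at Akap13, 0.216 at Dock2 and 0.844 at Ikzf2.

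At the other end, 2 domains held no control peak. One, at chr11:75586958-75627632, spanned 97.1% of Pitpna, a phosphatidylinositol transfer protein, over 40.7 kb with a fold of 2.63 and a −log10 q of 3.79. The other, of 44.9 kb at chr17:83967157-84012044, held no coding gene, only the RefSeq loci Gm35457 and 8430430B14Rik, and had the lowest fold of all, 2.00. Next came Eif4g3, a translation initiation factor, with 2.24% cover of a 50.8 kb domain, Arap1 with 4.40%, Gab3 with 4.79%, Arhgap32 with 4.94% and Fbxw4 with 5.04%. These 7 domains had folds between 2.00 and 2.93, all under the median of 3.17.

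The 7 domains without a coding gene held known non-coding or receptor loci in several cases. The widest, 171 kb at chr6:31064125-31234629, lay on Lncpint, a long non-coding RNA, with a fold of 3.25 and 26.6% cover. The next, of 145 kb, lay on the locus 2610307P16Rik with 46.9% cover. A domain of 44.2 kb at chr6:41187334-41231545 lay in the T cell receptor beta locus and held 7 of the 53 Trb segments of the gene table, Trbv20 to Trbv26, with a fold of 2.80 and 35.4% cover. One of 47.0 kb at chr12:107116783-107163807 held no listed gene and lay 747 kb from Bcl11b, a factor of T cell commitment, with 0 coding genes between them; its fold was 2.45 and its cover 18.7%.

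Few domains held several genes. Atp5pb, Wdr77, I830077J02Rik and Adora3 shared 67.3 kb on chromosome 3, where 35.7% was covered in the control against 41.0% in the flanks, so here the domain was covered less than its flanks. Sirt3, a mitochondrial deacetylase, shared 41.7 kb with Psmd13, Ric8a and Bet1l, with 18.8% cover. Ccnd3, cyclin D3, which drives division after the pre-T cell receptor signal, shared 143 kb with Med20 and Bysl, with 19.9% cover. Ubac2, Gpr183 and Gpr18 shared 125 kb with 53.1%, and Adgrg1, Adgrg3 and Drc7 shared 123 kb with 25.9%.

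Gene lists for the tissue and treatment are given as counts beside the background of 2.86% and, for genes long enough to fill a domain, 8.26%. These lists and the domains were chosen with earlier results of the same data known. All 516 entries of the 23 lists were found in the gene table. Of 30 genes of pre-T cell receptor and T cell receptor signalling, 8 lay inside the domains, all 8 among the 18 of at least 40 kb. Fyn, a Src-family kinase, had the longest stretch inside, in a domain of 143 kb with a fold of 2.41 and 37.5% weak control cover. Cblb, a ubiquitin ligase that restrains the receptor, followed with 116 kb, a fold of 3.02 and 49.3%, and Cd247, the zeta chain, with 78.8 kb, 4.54 and 75.6%. Cbl, Prkcq, Nck1 and Vav1 were among the other members.

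Of 32 T-lineage transcription factors, 6 lay inside, all among the 19 of at least 40 kb. Foxp1, Tox and Ikzf2 are given above, and Lef1, the partner of beta-catenin, had a domain of 79.2 kb with a fold of 2.27 and 28.4% cover. Runx3 and its partner Cbfb had 57.6 kb with 16.6% and 49.5 kb with 46.6% cover. Of 18 DN3 marker genes none lay inside, of which 13 were under 40 kb, and 6 were touched by wide domains with a strong control peak. The interval of 0 of 18 reaches 17.6% and so includes the background of 2.86%. This is no result about the markers of the stage.

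Of 30 Notch pathway genes, 5 lay inside, out of 15 of at least 40 kb. Besides Maml3 they were Fbxw7, the ubiquitin ligase that degrades Notch, with a domain of 158 kb, a fold of 2.76 and 39.9% cover, and Adam10, the protease that cleaves Notch, with 66.5 kb, 3.10 and 50.4%. Rbpj, the DNA-binding effector, had 57.7 kb with 63.7% cover and Spen, its corepressor, 55.6 kb with 40.3%. These 5 thus act at different steps of the pathway, while most of the 30 listed genes did not lie inside.

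Of 23 genes of PI3K, AKT and mTOR signalling, 6 lay inside, out of 17 of at least 40 kb. Foxo3, a transcription factor restrained by AKT, had a domain of 97.2 kb with a fold of 3.99 and 44.1% cover. Pik3r1, the regulatory subunit, had 82.4 kb with 4.43 and 55.2%, and Rictor, of the second mTOR complex, 69.0 kb with 4.23 and 59.0%. Pik3cd, Pik3ca and Pik3r5 were the others. Of 27 calcium and NFAT genes, 5 lay inside: Camk2d with 171 kb and 71.5% cover, Stim1 and Stim2, the calcium sensors of the endoplasmic reticulum, with 142 kb and 69.1% and 118 kb and 62.9%, and Nfat5 and Ppp3cb. Of 26 cytokine receptor and JAK-STAT genes, Jak1 and Kit lay inside, with 69.9% and 55.0% cover.

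Chromatin regulators were held in 2 lists. Of 33 chromatin remodellers and acetylation genes, 10 lay inside, 9 of them among the 23 of at least 40 kb. Hdac4, a histone deacetylase, had 180 kb with a fold of 3.56 and 41.5% cover, Ncoa2, a nuclear receptor coactivator, 154 kb with 3.49 and 55.6%, and Arid1b, a subunit of the BAF complex, 157 kb with 3.30 and 40.2%. Ep300 and Crebbp, the paired acetyltransferases, had 51.3 kb with 48.3% and 87.0 kb with 61.7%. Srcap had the least cover in the list, 11.8% of 50.4 kb. Of 34 histone methyltransferases and demethylases, 4 lay inside: Nsd3 with 75.6 kb, Nsd1 with 62.8 kb, Kdm1a with 46.6 kb and Kdm5b with 44.9 kb. The difference between the 2 lists was not tested.

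Among 31 genes of H3K79 methylation and elongation, 5 lay inside, 4 of them among the 14 of at least 40 kb. Mllt3, which encodes AF9, had a domain of 205 kb with a fold of 3.67, 31 weak control peaks and 64.7% cover, and Mllt10, which encodes the DOT1L partner AF10, had 123 kb with 3.11 and 37.2%. Aff1, a scaffold of the super elongation complex, had 158 kb with 3.99 and 38.9%. Ell and Ccnt2 had 44.9 kb with 19.1% and 40.5 kb with 69.8%.

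Of 27 genes of fatty acid and sterol synthesis, the pathway to which SCD1 belongs, 4 lay inside, 3 of them among the 7 of at least 40 kb. Elovl6, the elongase that makes stearic acid, had a domain of 100220 bp with a fold of 2.63 and 26.2% cover. Srebf2, the transcription factor of sterol synthesis, had 57.5 kb with 4.31 and 38.2%, and Fads2, a desaturase, 46.2 kb with 3.06 and 18.1%. With Elovl5 above, their folds ran from 2.63 to 5.32. Of 27 genes of fatty acid oxidation and uptake, 2 lay inside, Acsl4 with 51.5 kb and 55.3% cover and Acadl with 41.4 kb and 26.2%.

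Of 26 regulatory T cell genes, 4 lay inside, Ikzf2, Smad3 with 96.9 kb and 29.96% cover, Smad2 with 52.3 kb and 55.0%, and Tgfbr2, the receptor of TGF-beta, with 47.3 kb and 41.1%. One of 16 BCL2 family genes (Bcl2l1), 2 of 31 cell cycle genes (Ccnd3 and E2f3) and 1 of 8 stem and progenitor genes (Kit) lay inside. None of 18 housekeeping genes, 27 splicing factors, 20 tissue genes silent in blood, 12 OP9 stroma, 7 B cell, 8 myeloid and 5 erythroid genes did, but few of these are long: 0, 4, 1, 2, 3, 1 and 0 of them reached 40 kb. Among genes of at least 40 kb, the share inside was 44.4% (24.6 to 66.3) for T cell receptor signalling, 42.9% (15.8 to 74.95) for fatty acid and sterol synthesis, 39.1% (22.2 to 59.2) for chromatin remodellers, 35.3% (17.3 to 58.7) for PI3K signalling, 33.3% (15.2 to 58.3) for Notch and 31.6% (15.4 to 54.0) for T-lineage factors. Regulatory T cell genes had 30.8% (12.7 to 57.6), the H3K79 list 28.6% (11.7 to 54.6) and calcium signalling 26.3% (11.8 to 48.8). The intervals of these 9 lists lie above the 8.26% of all long genes, which counts long genes whether or not they were marked in these cells. Those of the cell cycle list (2 of 6 long genes, 9.68 to 70.0) and the BCL2 family (1 of 2, 9.45 to 90.5) also lie above 8.26%. A list with 1 of 2 long genes inside thus passes as well. The lists were chosen with earlier results known, so this is a description and no list is set apart by it. Histone methyltransferases and demethylases with 16.0% (6.403 to 34.7), JAK-STAT with 18.2% (5.14 to 47.7) and fatty acid oxidation with 9.09% (1.62 to 37.7) had intervals that include 8.26%.

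**Figure D5:**
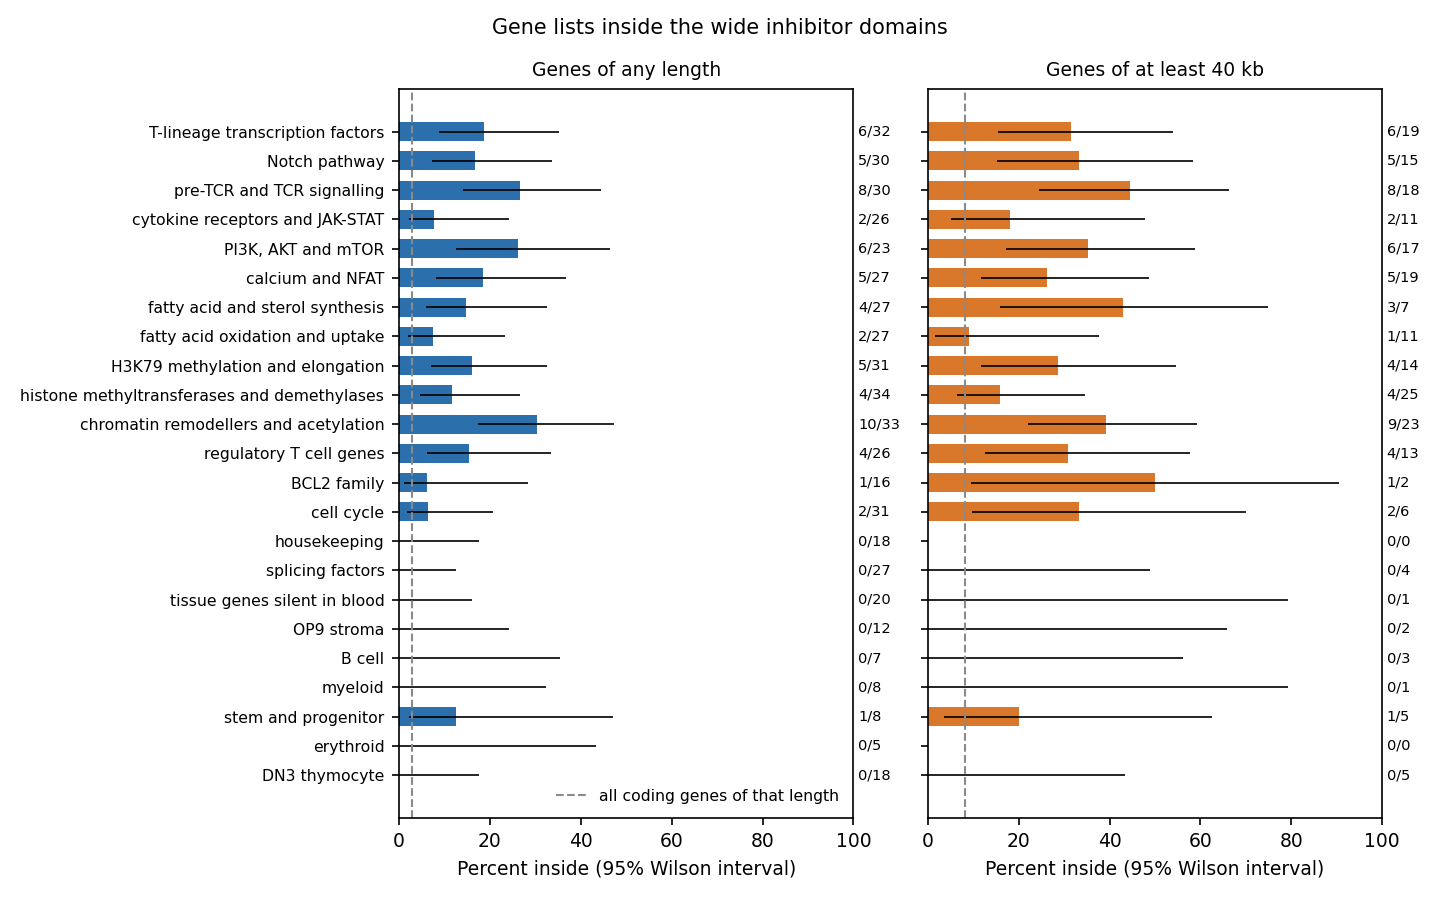
Percent of each gene list with at least 50% of the gene inside the domains (bars, x axis from 0) with 95% Wilson intervals (lines) and the counts beside them, over genes of any length (left) and of at least 40 kb (right). Dashed lines are the backgrounds of 2.86% (left) and 8.26% (right), and T cell receptor signalling with 8 of 18 long genes and chromatin remodellers with 9 of 23 have intervals above the latter.

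MicroRNA genes lay inside the domains too, 27 of the 1005 hairpins in the RefSeq table (2.69%), a share near the 2.86% of coding genes and so no result about microRNAs. The mature sequences below, with the seed (bases 2 to 8) in capitals, belong to the cluster of Mir23b, Mir27b and Mir24-1 in the domain of 74.6 kb on Aopep, with 47.1% weak control cover, to Mir340 in that of Rnf130 (35.0%) and to Mir744 in that of Map2k4 (69.2 kb, 44.3%). They are shown as widely conserved microRNAs with a locus inside a domain, chosen after their positions had been seen, and no 2 of them share a seed.
mmu-miR-27b-3p, chr13:63300760-63300780, plus strand: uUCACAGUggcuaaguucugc
mmu-miR-24-3p, chr13:63301251-63301272, plus strand: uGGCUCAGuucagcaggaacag
mmu-miR-340-5p, chr11:50069720-50069741, plus strand: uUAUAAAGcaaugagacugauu
mmu-miR-744-5p, chr11:65734799-65734820, minus strand: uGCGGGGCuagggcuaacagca

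The hairpin of Mir744 lay under a weak control peak, while those of Mir27b, Mir24-1 and Mir340 did not, although a weak peak covered other parts of their domains.

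The domains were spread over all chromosomes, from 1 on Y, over 38.7% of Uty or 62.2 kb, to 61 each on 2 and 11. The share of coding genes inside was 2.04% to 4.51% on the autosomes and 0.828% (8 of 966) on X, which carried 16 domains. Neighbouring domains were a median of 1717 kb apart, and 56 of 728 gaps were at most 100 kb.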

How the data were processed

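H3K79me2 ChIP-seq was done on 2 libraries of DN3-stage mouse thymocytes, control and inhibitor. The 2 matching inputs are not analysed here. The submitters' processing notes name BWA, MACS2 2.1.0 and mm10 with no role for any of them. Not given in the sources used here are the caller's options and any use of the inputs. The deposited lists give for each peak a position, a fold enrichment (a ratio), the −log10 of p and of q, and a score, all written by the authors' peak caller, with 1 list per library and no pooling. The deposited score was not used. The lowest −log10 p was 1.003 (control) and 1.001 (inhibitor), and read depth is unknown, so neither a per-read level nor its precision can be given. Leaving out 8 peaks of each list, the chromosomes 1 to 19, X and Y were used.

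Domains, peaks and genes were intersected with pandas 2.3.3, numpy 2.4.6 and scipy 1.17.1 under Python 3.11.15 (figures: matplotlib 3.10.9), counting an overlap from 1 bp. Gene bodies (21883 protein-coding genes), promoters and microRNAs came from RefSeq tables of GRCm38.p6, the assembly mm10 names. The promoter table gives a start for 17491 of these genes, and the starts and the direction of genes came from it. A gene was called inside at 50% or more of its body. Shares have 95% Wilson intervals, and medians have 95% order-statistic intervals. The functions for coverage and for the choice of domains were tested on simulated regions with known answers. The 95% intervals were not part of that test.

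The members and lists were chosen with earlier results of these data known. Named domains were the 10 widest, the 5 leading by fold, by q, by weak control cover and by number of genes, those without a control peak, and 3 on each side of each limit, plus up to 3 genes per gene list by length inside. Other names (the remaining genes of lists, the domains of least cover, those without coding genes, those in several pieces) were added after the values had been seen. Alternatives were other limits for width, q and control strength, merging of peaks, stronger control peaks only, other gene rules, and means or pooled lengths. One gene of the lists is not reported by name here.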

Additional observations from a re-analysis of the deposited data

How the results depend on the processing

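Over 12 planned settings and 1 added after seeing the data (inhibitor peaks merged within 5 kb), 41 of 58 values stayed within 1.5 times the reported count or length, or within the interval of the reported median or share. Among these counts, 904 genes were touched over any base, 754 lay inside after merging within 5 kb and 481 without overlapping genes, against 625 reported. With a width minimum of 30 kb there were 1177 domains with 965 genes inside and 5 without a control peak, and the weak cover of domains with a strong control peak was 14.2%. At 60 kb there were 371 domains of 35.7 Mb with 325 genes, a weak cover of 44.2% and 0 without a control peak, and the weak cover of domains with a strong control peak was 20.1%. At an inhibitor −log10 q of at least 2 the weak cover was 44.3% and 1 domain held no control peak. With control peaks at −log10 p of at least 2, the weak cover was 3.08%, 306 domains held no such peak, 9.61% had a start under one, and the weak cover of domains with a strong control peak was 0. With 80% of the gene required inside, 350 genes were counted. Merging within 1 kb changed nothing, since the smallest gap exceeds 1 kb. No paired analysis was possible because each condition has 1 library.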
